A study of Mus musculus with 24 samples.

Results

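The genes described here are the Wnt ligands, the receptors that bind them and the secreted proteins that modulate them. They were taken by symbol: every numbered Wnt, Fzd, Sfrp, Dkk and Rspo gene, with Lrp5, Lrp6, Lgr4, Lgr5, Lgr6, Ror1, Ror2 and Wif1. This gave 49 of the 36528 genes listed in each library, namely 19 Wnt ligands, 10 Frizzled receptors, 4 LRP co-receptors and ROR receptors, 7 R-spondins and LGR receptors, and 9 secreted modulators. The rule used gene names and no measured value.

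Wnt proteins are lipid-modified secreted ligands. Bound by a Frizzled receptor together with the co-receptor LRP5 or LRP6, they stabilise β-catenin, which drives transcription with TCF and LEF factors, whereas with ROR receptors they act through planar polarity and calcium routes. R-spondins, bound by LGR receptors, raise the number of Frizzled receptors at the membrane, and SFRP, WIF and most DKK proteins block ligand or co-receptor. In the brain the pathway is known for axon guidance, synapse formation and the growth of vessels and the blood-brain barrier.

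Bulk RNA-seq was done on fluorescence-sorted neurons of adult mouse cortex. There were 6 libraries of each of 4 subtypes, labelled EXC, PV, SST and VIP with no further expansion. Tissue was digested with papain, and cells that excluded DAPI and carried GFP or tdTomato from a transgenic reporter line were sorted alive. The labels name no line, strain or exact age and give no treatment, and they give no number of animals per library, so the p-values measure the spread between these libraries, which may in part be technical. VIP had 2 male libraries, PV 3, and EXC and SST 4 each, and the rest were female.

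Total counts per library ran from 1548907 to 15978459, lowest in PV (1548907 to 4653119). Each sort carried its own markers: the mean level of Slc17a7 was 532 CPM (counts scaled to a common library size) in EXC and at most 42.5 elsewhere, that of Pvalb 201 in PV and at most 3.16 elsewhere, that of Sst 1158 in SST and at most 58.8 elsewhere, and that of Vip 1727 in VIP and at most 1.58 elsewhere. Of the 6 VIP sort markers, 3 were higher in EXC than in the mean of the GABA sorts, among them Prox1 at 942 CPM in EXC and 1125 in VIP. The sum of the 6 was 4143 to 4624 CPM in VIP, 1090 to 1361 in EXC, 102 to 186 in PV and 55.4 to 86.6 in SST. EXC replicate 3 stood apart, with a summed excitatory marker level of 1881 CPM against 4038 or more in the other EXC libraries. EXC replicates 2 and 6 had the highest oligodendrocyte sums, up to 2987 CPM. Markers of other cells also differed between sorts. In EXC the dentate granule neuron genes Dsp, Lct and C1ql2 averaged 275, 119 and 63.8 CPM, against at most 1.65, 0.335 and 0.0699 in the other sorts. The summed level of 7 ependymal genes was 53.3 to 208 CPM in PV and at most 7.33 elsewhere, and that of 9 striatal projection neuron genes was 287 to 1037 CPM in SST and at most 130 elsewhere. Sequencing pool largely followed subtype: POOL6188 held all 6 PV and 5 EXC libraries, POOL7098 held 5 SST and 2 VIP libraries, POOL7099 held 4 VIP libraries and EXC replicate 3, and POOL7100 held SST replicate 5.

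Of the 49 genes, 22 reached a mean of at least 5 CPM in some subtype, 12 peaked between 1 and 5 CPM and 15 stayed below 1 CPM in all 4. The low-count filter kept 30 of them for testing. Of these 30, 26 differed among the 4 subtypes at an adjusted p under 0.05, where 68.5% of all 14890 genes tested did so. The highest subtype did not overlap any library of the other subtypes for 13 of the 30, against 11.6% of all genes tested. A gene can pass the filter through its highest subtype alone, so nothing is drawn from these shares. The 4 tested genes that were not called were Fzd5, Fzd6, Fzd8 and Wnt2b. Among the 22 genes above 5 CPM, EXC had the highest mean for 8, VIP for 8, PV for 4 and SST for 2.

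**Figure D1:**
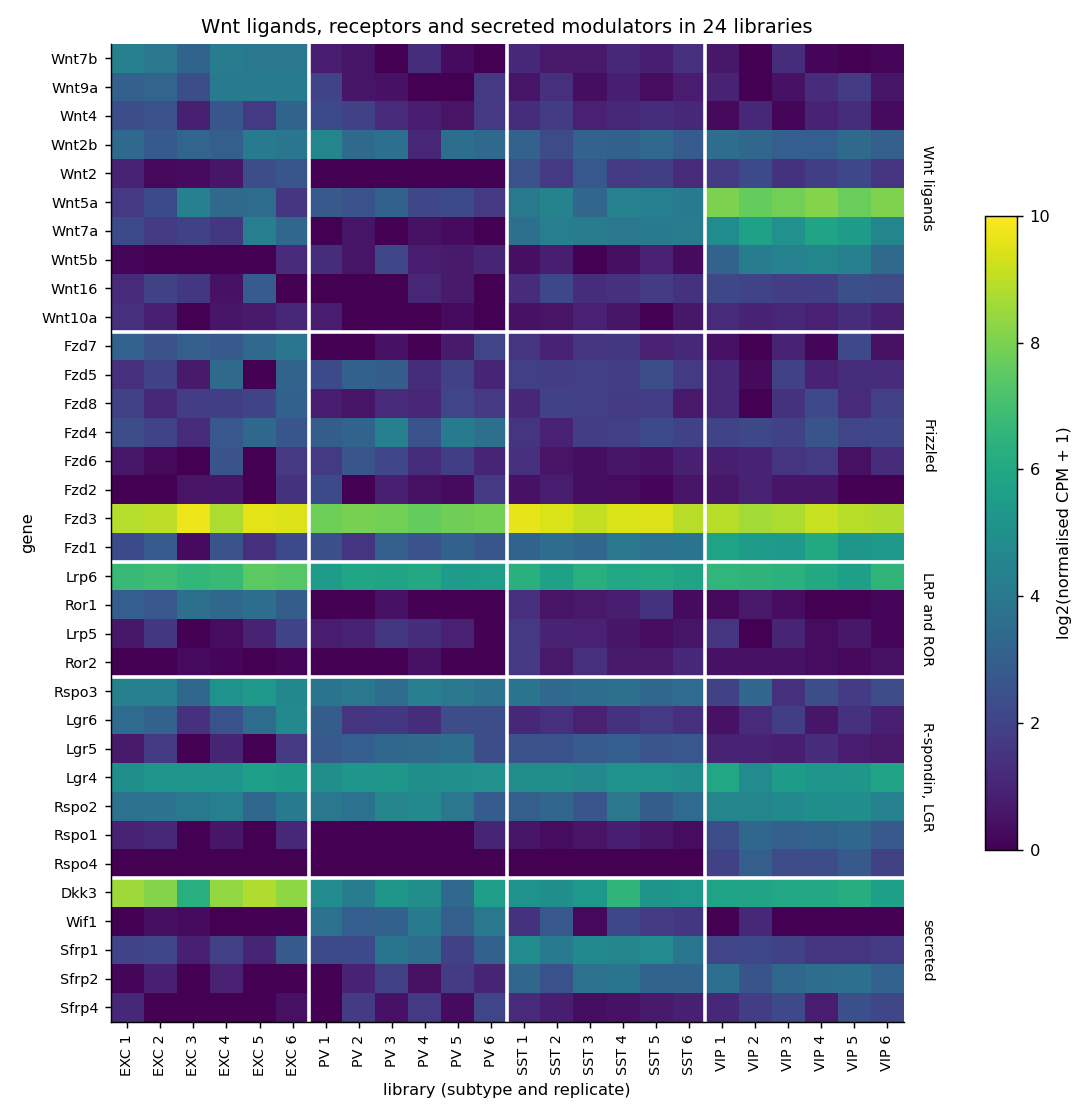
Levels of the 34 genes that reached a mean of at least 1 CPM in a subtype, as log2(normalised CPM + 1) by colour, with 1 column per library and rows grouped by role. Fzd3 is bright in every column, Wnt5a is bright in the 6 VIP columns, Dkk3 in the EXC columns other than replicate 3, and Rspo4 is at 0 outside VIP.

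Promoters were taken for the 32 genes of the 49 with an entry in the RefSeq table for GRCm38.p6, which held 35 start sites for them. Shown here are the 250 bases before the start of 5 genes whose highest subtype did not overlap any other library, because their differences are described below: Wnt7a (chr6:91411354-91411603, minus strand) and Fzd1 (chr5:4758217-4758466, minus strand), highest in VIP, Fzd7 (chr1:59481897-59482146, plus strand) and Ror1 (chr4:100095541-100095790, plus strand), highest in EXC, and Wif1 (chr10:121033754-121034003, plus strand), highest in PV. Each runs 5′ to 3′ on the gene's strand and ends at the base before the start. Capitals mark matches, on either strand, to the GC box GGGCGG or the TATA motif TATAAA.
Wnt7a: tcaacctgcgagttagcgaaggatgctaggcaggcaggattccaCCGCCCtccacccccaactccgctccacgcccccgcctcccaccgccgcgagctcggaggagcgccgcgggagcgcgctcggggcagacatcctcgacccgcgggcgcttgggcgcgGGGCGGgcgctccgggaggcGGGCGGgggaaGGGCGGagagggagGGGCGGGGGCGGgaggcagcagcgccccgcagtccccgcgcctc
Fzd1: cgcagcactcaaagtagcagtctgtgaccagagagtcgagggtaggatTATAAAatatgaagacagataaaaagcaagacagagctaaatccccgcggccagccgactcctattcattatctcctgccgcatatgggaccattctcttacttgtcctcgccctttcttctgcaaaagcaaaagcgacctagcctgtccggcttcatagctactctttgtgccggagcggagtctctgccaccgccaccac
Fzd7: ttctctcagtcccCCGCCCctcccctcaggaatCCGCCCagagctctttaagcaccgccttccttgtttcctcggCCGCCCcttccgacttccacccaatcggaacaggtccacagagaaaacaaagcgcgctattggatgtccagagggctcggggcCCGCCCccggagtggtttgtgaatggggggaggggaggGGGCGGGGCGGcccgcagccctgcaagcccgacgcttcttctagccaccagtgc
Ror1: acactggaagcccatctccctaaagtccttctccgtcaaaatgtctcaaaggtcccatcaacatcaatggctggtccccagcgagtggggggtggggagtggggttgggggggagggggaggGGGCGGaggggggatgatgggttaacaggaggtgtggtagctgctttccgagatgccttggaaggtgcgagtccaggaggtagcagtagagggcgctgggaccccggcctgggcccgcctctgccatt
Wif1: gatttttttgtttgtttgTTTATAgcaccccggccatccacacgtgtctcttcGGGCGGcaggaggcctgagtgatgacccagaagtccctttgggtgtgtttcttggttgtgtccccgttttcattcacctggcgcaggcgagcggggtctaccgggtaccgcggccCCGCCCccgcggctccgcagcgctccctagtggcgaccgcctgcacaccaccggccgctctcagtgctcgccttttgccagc

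GGGCGG was in 25 of the 35 windows, against 32.7% of the 32851 promoter windows of the same length in the table. Wnt7a and Fzd7 each held 6 matches (1 pair in Fzd7 overlapping), Wif1 held 2, Ror1 held 1 and Fzd1 held none. TATAAA was in 5 of the 35 windows against 12.4% of all, in Fzd1 and Wif1 more than 200 bases before the start. CTTTGAA or CTTTGAT, the letters that TCF and LEF factors are known to bind, was in 3 of the 35 windows (Dkk1, Wnt11 and Wnt5b) against 7.48% of all, and in none of the 5 shown. GC content was 77.6% in the Wnt7a window and 51.2% in that of Fzd1, against a median of 52.4% over all windows. These matches describe the letters in the windows and say nothing of binding.

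Among the ligands, VIP neurons carried the most Wnt RNA, dominated by Wnt5a, with Wnt7a and Wnt5b also highest there. EXC neurons carried Wnt7b and Wnt9a, which averaged about 1 CPM or less in the 3 GABA sorts. In PV neurons Wnt2b had the highest mean, except that in PV replicate 4 it was 11.35% of the ligand sum, below Wnt1, Wnt5a, Wnt16 and Wnt7b. In bulk samples fewer cells of a type and less RNA per cell cannot be told apart. On the per-length RPKM scale, which allows genes to be added, the summed level of the 19 ligands averaged 34.9 ± 3.16 in VIP, 9.63 ± 2.91 in EXC, 7.08 ± 0.517 in SST and 3.16 ± 1.47 in PV (SD, n = 6 each). Wnt5a made up 61.0% ± 8.10 of that sum in VIP, Wnt7a 41.3% ± 4.60 in SST and Wnt2b 53.1% ± 21.0 in PV, whereas in EXC Wnt7b (22.1% ± 7.32), Wnt9a (20.6% ± 6.91) and Wnt2b (17.7% ± 3.35) were close together. Of the 19 ligands, 8 averaged at least 1 CPM in EXC, 7 in VIP, 6 in SST and 5 in PV.

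Wnt5a (chr14:28504543-28527448 in GRCm38.p6, as for all genes here), a ligand best known for acting without β-catenin, ran from 196 to 280 normalised CPM in VIP (median 246), from 8.76 to 21.0 in SST (median 17.7), from 2.02 to 19.7 in EXC (median 6.83) and from 2.15 to 7.55 in PV (median 4.20). All 6 VIP libraries lay far above the other 18, while EXC overlapped both SST and PV. The log2 fold change of VIP against the mean of PV and SST was 4.83 ± 0.32 (SE, adjusted p = 2.72e-12, edgeR quasi-likelihood test with Benjamini-Hochberg adjustment, as for every adjusted p here). Such a contrast sets a subtype against the mean of the log levels of the others. PV was lower than the mean of SST and VIP (log2 fold change -3.79 ± 0.41, adjusted p = 3.63e-08). With the sequencing pool as a covariate that change was -2.03 ± 0.77 and the call was lost (adjusted p = 0.0675). Within POOL7098 the fold of SST against VIP was -3.80 ± 0.24, next to -3.91 ± 0.38 over all libraries. EXC replicate 3, the library with the low excitatory sum, held the highest EXC value of 19.7.

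Wnt5b (chr6:119432531-119544824), the closest relative of Wnt5a, ran from 8.16 to 23.1 CPM in VIP (median 18.6), from 0.469 to 3.36 in PV (median 0.906), from 0 to 0.865 in SST (median 0.332) and from 0 to 1.26 in EXC (median 0). VIP did not overlap any other subtype, and 4 EXC libraries had no read. In summed normalised reads VIP was 37.5 times SST (counting interval at 95% from 26.7 to 54.3, 661 reads against 35). Of the 11 reads in EXC, 10 came from replicate 6, the library with the highest astrocyte and endothelial sums, so no ratio to EXC is given. The fitted change of VIP against the mean of PV and SST was 4.48 ± 0.53 (adjusted p = 1.89e-07). The Wnt5b locus overlaps Fbxl14, at 30.7 to 44.7 CPM on average in every subtype, and a non-coding gene, Gm30690, at 4.18 ± 2.63 CPM in VIP and at most 0.218 elsewhere. With the counting's strand setting unknown, reads of overlapping genes cannot be told apart.

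Wnt7a (chr6:91363981-91411353), known for effects on axons, synapses and brain vessels, ran from 23.1 to 55.9 CPM in VIP (median 38.5), from 12.03 to 18.2 in SST (median 16.6), from 2.09 to 18.6 in EXC (median 3.38) and from 0 to 0.469 in PV (median 0.109). The order VIP, SST, PV held with no overlap, and EXC spread from near PV up to SST. PV held 3 reads in all. SST exceeded PV 75.4-fold in summed normalised reads (counting interval 25.8 to 366), and VIP exceeded PV 182-fold (62.2 to 884). SST against VIP gave -1.40 ± 0.39 (adjusted p = 0.00769), and -0.80 ± 0.22 within POOL7098 (adjusted p = 0.011). PV against EXC gave -4.75 ± 0.76 (adjusted p = 1.08e-05), and -4.71 ± 0.76 within POOL6188. In VIP the oligodendrocyte precursor gene Pdgfra averaged 16.2 CPM against at most 0.928 elsewhere, while Cspg4, of the same list, was at 0.388, and the summed level of the 3 genes was 15.5 to 22.3 CPM in VIP and at most 10.97 in any other library. Its part in the VIP values was not tested.

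Wnt7b (chr15:85535437-85581821), the close relative of Wnt7a, showed another pattern. It ran from 8.46 to 19.6 CPM in EXC (median 15.0), from 0.594 to 1.52 in SST (median 0.976), from 0 to 1.48 in PV (median 0.344) and from 0 to 1.47 in VIP (median 0.123). The 6 EXC libraries all lay above the other 18, with the lowest in EXC replicate 3. The change of EXC against the mean of the GABA sorts was 4.68 ± 0.40 (adjusted p = 2.60e-10), and within POOL6188 PV against EXC was -4.95 ± 0.51 next to -4.87 ± 0.68 over all libraries.

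Wnt9a (chr11:59306849-59333552), a ligand studied mainly in skeletal and blood development, ran from 4.23 to 16.8 CPM in EXC (median 12.6), from 0 to 2.99 in PV (median 0.444), from 0.266 to 1.60 in SST (median 0.601) and from 0 to 2.39 in VIP (median 0.725). EXC was again separate from all other libraries, with replicate 3 again lowest. The change of EXC against the mean of the others was 3.78 ± 0.46 (adjusted p = 1.65e-07). On chromosome 11 Wnt9a lies 16097 bases from Wnt3a, whose highest mean level was 0.0556 CPM.

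Wnt2b (chr3:104944805-104961709), known from eye and lung development, ran from 6.13 to 16.1 CPM in EXC, from 1.11 to 22.4 in PV, from 3.91 to 9.58 in SST and from 6.91 to 11.1 in VIP, with medians between 7.78 and 10.6. All 4 subtypes overlapped, and no difference among them was called (joint adjusted p = 0.418). The largest pairwise fold was PV against SST, 0.62 ± 0.37 (adjusted p = 0.242). Its locus overlaps St7l, at 39.5 to 49.1 CPM on average in each subtype.

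**Figure D2:**
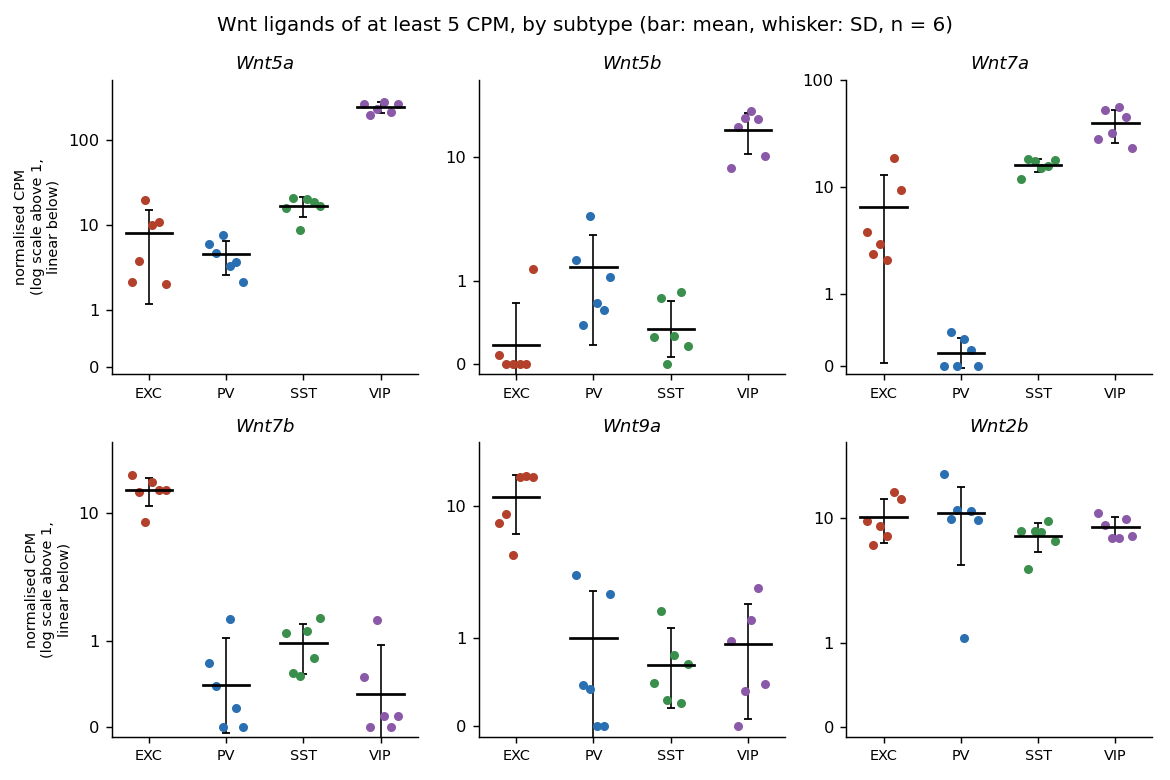
Levels of the 6 Wnt ligands of at least 5 CPM, with 1 point per library, the mean as a bar and the SD as a whisker (n = 6 per subtype, axis logarithmic above 1 CPM and linear below, whiskers below 0 not drawn). Wnt5a, Wnt5b and Wnt7a are highest in VIP and Wnt7b and Wnt9a in EXC with no overlap, whereas the 4 groups of Wnt2b overlap.

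Among the ligands between 1 and 5 CPM, Wnt2 had no read in PV and averaged 1.90 ± 2.27 CPM in EXC, 3.10 ± 1.69 in SST and 2.64 ± 0.818 in VIP. Against the floor of 3 reads over the PV group, SST was at least 12.8-fold and VIP at least 11.9-fold higher than PV. Within SST, Wnt2 was highest in replicates 3 and 1 (5.79 and 4.53 CPM), which had the highest striatal projection neuron sums (1037 and 980 CPM). The other SST libraries held 1.36 to 2.59 CPM of Wnt2 at sums of 287 to 597 CPM. The part of the striatal genes in the Wnt2 values was not tested. Wnt16 averaged 3.38 ± 0.761 CPM in VIP, 2.22 ± 2.40 in EXC, 2.05 ± 0.790 in SST and 0.294 ± 0.478 in PV. VIP was higher than the mean of PV and SST by 1.95 ± 0.61 (adjusted p = 0.0109), a call lost with the pool as a covariate (adjusted p = 0.165). Neither SST against VIP (-0.81 ± 0.64, adjusted p = 0.355) nor VIP against EXC (0.70 ± 0.65, adjusted p = 0.417) was called for Wnt16. Wnt4 averaged 4.29 ± 2.59 CPM in EXC and 0.703 to 1.85 in the other sorts, a difference of 1.83 ± 0.42 (adjusted p = 0.000862) that was -0.83 with the sequencing pool as a covariate (adjusted p = 0.426). Wnt10a, not tested, averaged 0.161 to 1.12 CPM. The other 9 ligands (Wnt1, Wnt3, Wnt3a, Wnt6, Wnt8a, Wnt8b, Wnt9b, Wnt10b and Wnt11) averaged at most 0.459 CPM in any subtype, and no library exceeded 2.52 CPM. A count of 0 over a group allows up to 0.213 CPM in PV and 0.0382 CPM in SST, so absence was not shown.

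Frizzled RNA was mostly Fzd3 in every subtype, a receptor known for axon guidance and planar polarity. Its share of the summed RPKM of the 10 Frizzled genes was 91.3% ± 1.73 in SST, 89.8% ± 4.63 in EXC, 78.2% ± 4.50 in PV and 74.0% ± 2.49 in VIP. The remainder differed by subtype: Fzd1 made up 21.7% ± 2.82 of the sum in VIP, and Fzd4 6.42% ± 2.74 in PV. The summed level was 13.5 ± 1.36 RPKM in PV and between 30.3 and 32.5 in the other subtypes.

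Fzd3 (chr14:65192441-65262463) ran from 200 to 247 CPM in PV (median 230), from 395 to 564 in VIP (median 466), from 482 to 787 in SST (median 699) and from 441 to 852 in EXC (median 607). All PV libraries lay below all others, and the other 3 groups overlapped. PV was lower than the mean of SST and VIP, with a change of -1.28 ± 0.14 (adjusted p = 5.18e-08), and lower than EXC, with -1.41 ± 0.16 over all libraries and -1.30 ± 0.15 within POOL6188 (adjusted p = 1.74e-06). SST against VIP gave 0.42 ± 0.16 (adjusted p = 0.0434), which within POOL7098 was 0.55 ± 0.22 (adjusted p = 0.0588). The call of VIP against the mean of PV and SST (0.32 ± 0.13, adjusted p = 0.0493) was lost in 17 of the 24 fits that left out 1 library, with adjusted p from 0.0511 to 0.13.

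Fzd1 (chr5:4753839-4758216) ran from 38.1 to 65.9 CPM in VIP (median 43.7), from 8.41 to 15.1 in SST (median 11.9), from 1.87 to 7.65 in PV (median 5.09) and from 0.212 to 6.30 in EXC (median 3.79). VIP was above SST and SST above PV and EXC in every library, and PV and EXC overlapped. The change of VIP against the mean of PV and SST was 2.51 ± 0.27 (adjusted p = 2.76e-08), and SST against VIP was -1.98 ± 0.24 within POOL7098 (adjusted p = 1.84e-05). PV against EXC was not called (0.54 ± 0.37, adjusted p = 0.246).

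Fzd7 (chr1:59482147-59486955), known from stem cell work, ran from 4.94 to 14.4 CPM in EXC (median 7.50), from 0.865 to 2.07 in SST (median 1.57), from 0 to 3.22 in PV (median 0.210) and from 0 to 3.68 in VIP (median 0.374). EXC did not overlap the rest, and its change against their mean was 3.13 ± 0.50 (adjusted p = 1.02e-05). Within POOL6188 PV against EXC was -4.04 ± 0.75 (adjusted p = 0.000308).

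Fzd4 (chr7:89404366-89410110), the receptor for norrin in retinal vessels, ran from 4.81 to 19.3 CPM in PV (median 10.1), from 1.27 to 9.52 in EXC (median 4.77), from 2.93 to 5.03 in VIP (median 3.33) and from 0.889 to 3.73 in SST (median 2.63). PV overlapped EXC in 3 of its libraries and VIP in 1. The change of PV against the mean of SST and VIP was 1.89 ± 0.34 (adjusted p = 6.98e-05), and -0.19 with the pool as a covariate (adjusted p = 0.915). PV against EXC was 1.07 ± 0.42 (adjusted p = 0.0379), and within POOL6188 0.91 ± 0.44 (adjusted p = 0.107). The locus overlaps Tmem135, which averaged 92.2 ± 14.3 CPM in PV and 51.0 to 57.3 in the other sorts, and its part in the Fzd4 values was not tested.

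The remaining Frizzled genes were low. Fzd5, Fzd6 and Fzd8 averaged 0.676 to 3.90 CPM with overlapping groups and joint adjusted p of 0.261, 0.147 and 0.357. Fzd2, not tested, averaged 0.385 to 1.22 CPM, and Fzd9 and Fzd10 at most 0.664 CPM.

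Of the LRP co-receptors, which bring Axin to the membrane in the β-catenin branch, Lrp6 (chr6:134446476-134566913) was the main RNA. It ran from 96.4 to 179 CPM in EXC (median 113), from 49.7 to 95.4 in VIP (median 85.9), from 52.4 to 80.5 in SST (median 65.9) and from 43.3 to 64.7 in PV (median 51.9). The lowest EXC library lay just above the highest VIP library, and the 3 GABA sorts overlapped. The change of EXC against their mean was 0.95 ± 0.14 (adjusted p = 3.60e-06), and PV against EXC within POOL6188 was -1.30 ± 0.16 (adjusted p = 3.92e-06). PV fell below the mean of SST and VIP by 0.46 (log2 fold change -0.46 ± 0.16, adjusted p = 0.0248), a call lost without PV replicate 1 (adjusted p = 0.0757), 5 (0.0621) or 6 (0.0562). The opposite call for VIP (0.46 ± 0.16, adjusted p = 0.0205) was lost without VIP replicate 1 (adjusted p = 0.0686). Lrp5, not tested, averaged 0.655 to 1.13 CPM.

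Of the ROR receptors, which are known to bind Wnt5a, Ror1 was highest in EXC and Ror2 in SST. Ror1 (chr4:100095791-100444806) ran from 5.62 to 12.1 CPM in EXC (median 8.10), from 0.218 to 1.73 in SST (median 0.665), from 0 to 0.587 in VIP (median 0.157) and from 0 to 0.419 in PV (median 0). EXC did not overlap the others, and PV held 1 read in all. The change of EXC against their mean was 4.98 ± 0.45 (adjusted p = 7.74e-10), and EXC exceeded VIP 47.7-fold in summed normalised reads (counting interval 22.9 to 119, 363 reads against 7). Ror2, not tested, ran from 0.622 to 2.14 CPM in SST and reached at most 0.400 CPM in any other library. Its highest values, 2.14 and 1.63 CPM, were in SST replicates 1 and 3, which also had the highest striatal projection neuron sums. The part of the striatal genes in the Ror2 values was not tested. In VIP, where Wnt5a averaged 241 CPM, Ror1 averaged 0.195 and Ror2 0.329 CPM.

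Per length, Rspo3 was the highest R-spondin on average in EXC, PV and SST and Rspo2 in VIP. Rspo1 was highest in VIP, and Rspo4 had reads in VIP alone. Of the summed RPKM of R-spondins and LGR receptors, Rspo3 made up 42.5% ± 10.9 in EXC, 32.2% ± 4.49 in SST, 32.0% ± 4.92 in PV and 7.43% ± 4.81 in VIP. R-spondins bind an LGR receptor and the ligases ZNRF3 and RNF43, which otherwise remove Frizzled receptors.

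Rspo1 (chr4:124986401-125009102) ran from 4.08 to 9.20 CPM in VIP (median 7.75), from 0 to 1.19 in EXC (median 0.749), from 0.267 to 0.803 in SST (median 0.456) and from 0 to 1.07 in PV (median 0). VIP did not overlap the others, and 5 PV libraries had no read. In summed normalised reads VIP was 10.8 times EXC (counting interval 7.37 to 16.4) and 15.9 times SST (11.2 to 23.2). The fitted change of VIP against the mean of PV and SST was 5.02 ± 0.59 (adjusted p = 1.28e-07), and within POOL7098 SST against VIP was -3.49 ± 0.50 (adjusted p = 9.83e-05).

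Rspo4 (chr2:151842647-151874668), best known for nail formation, ran from 2.87 to 7.05 CPM in VIP (median 4.07), with 170 reads in all. Every EXC, PV and SST library held 0 reads. Against the floor of 3 reads per group, VIP was at least 61.7-fold higher than EXC, 20.2-fold higher than PV and 113-fold higher than SST. The test called VIP against the mean of PV and SST (adjusted p = 3.75e-06).

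Rspo2 (chr15:43020788-43171594) ran from 20.8 to 30.4 CPM in VIP (median 24.5), from 6.44 to 25.1 in PV (median 14.8), from 9.52 to 18.9 in EXC (median 14.3) and from 5.20 to 14.5 in SST (median 8.12). The highest 2 PV libraries lay within the VIP range, and no EXC or SST library did. VIP was higher than the mean of PV and SST by 1.04 ± 0.22 (adjusted p = 0.000456), and SST was lower than that of PV and VIP, with -1.18 ± 0.24 (adjusted p = 0.000549).

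Rspo3 (chr10:29453106-29535867) ran from 9.31 to 41.4 CPM in EXC (median 22.4), from 10.5 to 18.5 in PV (median 14.2), from 9.51 to 13.5 in SST (median 10.7) and from 1.60 to 8.81 in VIP (median 3.37). VIP lay below every other library, and the lowest EXC value was replicate 3. VIP was lower than the mean of PV and SST, with -1.65 ± 0.32 (adjusted p = 0.000138), and within POOL7098 SST against VIP was 2.43 ± 0.35 (adjusted p = 0.000102). EXC was higher than the mean of the others by 1.53 ± 0.25 (adjusted p = 1.18e-05). With the pool as a covariate EXC against that mean was 0.04 (adjusted p = 0.95) and PV against the mean of SST and VIP turned from 1.12 ± 0.28 (adjusted p = 0.00255) to -1.32 (adjusted p = 0.162). PV against EXC was -0.79 ± 0.33 (adjusted p = 0.0498), and -0.87 ± 0.22 within POOL6188 (adjusted p = 0.00373).

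Lgr4 (chr2:109917647-110014257), the most abundant of the LGR receptors per length in every subtype, ran from 27.6 to 62.5 CPM in VIP, from 30.8 to 49.2 in EXC, from 29.9 to 38.6 in PV and from 24.8 to 33.9 in SST, with medians of 41.0, 37.1, 31.9 and 29.4. All groups overlapped. The joint test gave an adjusted p of 0.0192, and VIP against the mean of PV and SST was 0.50 ± 0.15 (adjusted p = 0.00672), a call lost without VIP replicate 1 (0.38, adjusted p = 0.0591).

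Lgr5 (chr10:115450314-115587780), a marker of several adult stem cells, ran from 4.29 to 11.1 CPM in PV (median 8.13), from 4.62 to 7.02 in SST (median 5.43), from 0 to 2.21 in EXC (median 0.847) and from 0.599 to 1.38 in VIP (median 0.885). PV and SST overlapped each other and lay above all EXC and VIP libraries. PV against EXC was 2.95 ± 0.54 (adjusted p = 7.31e-05) and within POOL6188 2.73 ± 0.63 (adjusted p = 0.00188). SST against VIP was 2.70 ± 0.54 (adjusted p = 0.000435) and within POOL7098 2.79 ± 0.44 (adjusted p = 0.000241). PV against SST was not called (0.50 ± 0.49, adjusted p = 0.498). With the pool as a covariate PV against the mean of SST and VIP turned from 1.85 ± 0.42 (adjusted p = 0.0011) to -4.20 ± 2.82 (adjusted p = 0.321). In the same fit VIP against the mean of PV and SST turned from -2.95 ± 0.51 (adjusted p = 4.61e-05) to 0.0896 ± 0.217 (adjusted p = 0.84). That fit links PV to SST and VIP through EXC replicate 3 alone, which held 0 Lgr5 reads.

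Lgr6 (chr1:134983300-135105374), the third LGR receptor, ran from 1.69 to 25.1 CPM in EXC (median 9.21), from 1.48 to 6.73 in PV (median 3.12), from 0.891 to 2.13 in SST (median 1.57) and from 0.388 to 2.67 in VIP (median 1.10). The lowest EXC library, replicate 3, lay within the range of all other sorts, and the highest was replicate 6, the library with the highest astrocyte sum (4325 CPM, with 504 to 1738 in the other EXC libraries). The change of EXC against the mean of the others was 2.47 ± 0.38 (adjusted p = 6.30e-06), and PV against EXC within POOL6188 was -1.78 ± 0.50 (adjusted p = 0.00779). PV against the mean of SST and VIP (1.25 ± 0.48, adjusted p = 0.0393) was -1.06 with the pool as a covariate (adjusted p = 0.579), and lost its call in 10 of 24 fits without 1 library, with adjusted p from 0.0509 to 0.147.

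**Figure D3:**
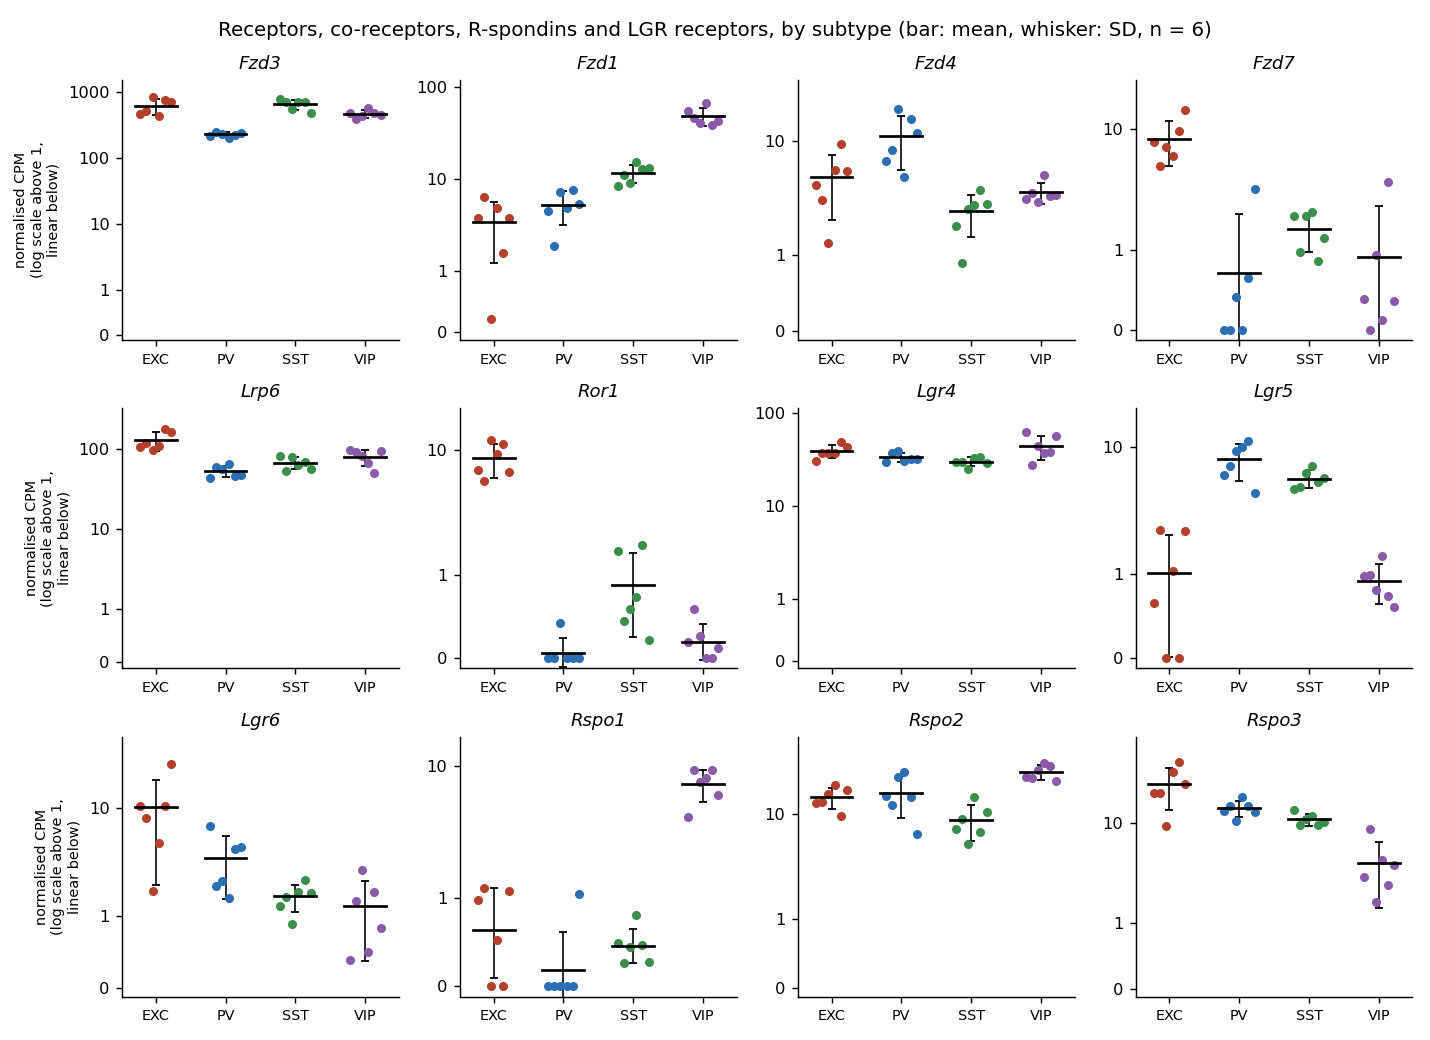
Levels of the 12 receptors, co-receptors and R-spondins of at least 5 CPM, 1 point per library, with the mean as a bar and the SD as a whisker (n = 6 per subtype, axis logarithmic above 1 CPM and linear below, whiskers below 0 not drawn). Fzd1 and Rspo1 are highest in VIP, Fzd7 and Ror1 in EXC, Lgr5 is higher in PV and SST, and Fzd3 is lowest in PV.

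The secreted modulators also divided by subtype. Dkk3 was the leading one in all 4 and by far highest in EXC, Sfrp1 was highest in SST, Sfrp2 in SST and VIP, and Wif1 in PV. The 9 genes together averaged 51.4 ± 19.9 RPKM in EXC and 8.31 to 13.9 in the GABA sorts, and Dkk3 made up 98.4% ± 0.819 of the sum in EXC, 74.5% ± 2.61 in VIP, 55.4% ± 8.28 in SST and 55.3% ± 8.52 in PV.

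Dkk3 (chr7:112116019-112159482), a divergent member of the Dickkopf family, ran from 78.9 to 444 CPM in EXC (median 322), from 49.4 to 73.4 in VIP (median 59.1), from 30.8 to 92.5 in SST (median 37.1) and from 9.61 to 47.2 in PV (median 28.6). EXC replicate 3 had 78.9 CPM and the other 5 EXC libraries at least 281, above every GABA library, the highest of which was SST replicate 4. The change of EXC against the mean of the others was 2.91 ± 0.24 (adjusted p = 1.28e-10), and PV against EXC within POOL6188 was -3.69 ± 0.30 (adjusted p = 3.21e-08). VIP against EXC was -2.42 ± 0.34 over all libraries and -0.03 ± 0.54 within POOL7099, where EXC replicate 3 is the sole EXC library. PV was lower than the mean of SST and VIP (-0.92 ± 0.31, adjusted p = 0.0179), a call lost without PV replicate 2 (adjusted p = 0.0544) or 5 (0.0602), and VIP was higher than that of PV and SST (0.73 ± 0.28, adjusted p = 0.0328), lost in 5 of 24 such fits (adjusted p from 0.0526 to 0.114).

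Sfrp1 (chr8:23411383-23449632), which carries a Frizzled-like domain that binds Wnt proteins, ran from 14.1 to 27.5 CPM in SST (median 24.4), from 2.84 to 13.8 in PV (median 5.63), from 0.846 to 6.05 in EXC (median 2.89) and from 1.84 to 3.52 in VIP (median 2.54). The lowest SST library lay just above the highest PV library. SST was higher than the mean of PV and VIP by 2.38 ± 0.33 (adjusted p = 4.69e-06), and within POOL7098 SST against VIP was 2.85 ± 0.36 (adjusted p = 3.31e-05). The striatal projection neuron sum, 287 to 1037 CPM in SST against 31.7 to 130 in the other sorts, moves with this difference, and its part was not tested.

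Sfrp2 (chr3:83765750-83774314), a relative of Sfrp1, ran from 4.71 to 13.6 CPM in SST (median 8.63), from 5.09 to 11.7 in VIP (median 10.3), from 0 to 2.94 in PV (median 1.01) and from 0 to 0.912 in EXC (median 0.0542). SST and VIP overlapped and lay above all PV and EXC libraries. In summed normalised reads SST was 30.8 times EXC (counting interval 17.9 to 58.1) and VIP 31.4 times EXC (18.1 to 59.5), with 12 of the 13 EXC reads in replicates 2 and 4, and PV against SST was -2.81 ± 0.59 (adjusted p = 0.000725). SST against VIP was not called (0.07 ± 0.47, adjusted p = 0.928). The call of SST against the mean of PV and VIP (1.44 ± 0.44, adjusted p = 0.0206) was lost without SST replicate 4 (adjusted p = 0.0752).

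Wif1 (chr10:121034004-121100642), which binds Wnt ligands outside the cell, ran from 7.03 to 17.0 CPM in PV (median 10.1), from 0.148 to 5.60 in SST (median 2.20), from 0 to 1.17 in VIP (median 0) and from 0 to 0.340 in EXC (median 0). PV lay above all other libraries. In summed normalised reads PV was 3.78 times SST (counting interval 3.04 to 4.70) and 146 times EXC (48.8 to 715, 143 reads against 3). The change of PV against the mean of SST and VIP was 4.03 ± 0.64 (adjusted p = 1.40e-05), and PV against EXC within POOL6188 was called (adjusted p = 1.03e-06). The 7 ependymal genes summed to 53.3 to 208 CPM in PV (median 128), 2.79 to 6.10 in SST, 1.20 to 7.33 in VIP and 0.265 to 7.32 in EXC, with Tmem212 at 0 in EXC and Ccdc153 and Cfap161 at 0 in VIP, and their part in the Wif1 values was not tested. The call of EXC against the mean of the others (log2 fold change -4.23 ± 0.96, adjusted p = 0.000799) was lost without VIP replicate 2, which holds all 6 reads of VIP (adjusted p = 0.987).

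**Figure D4:**
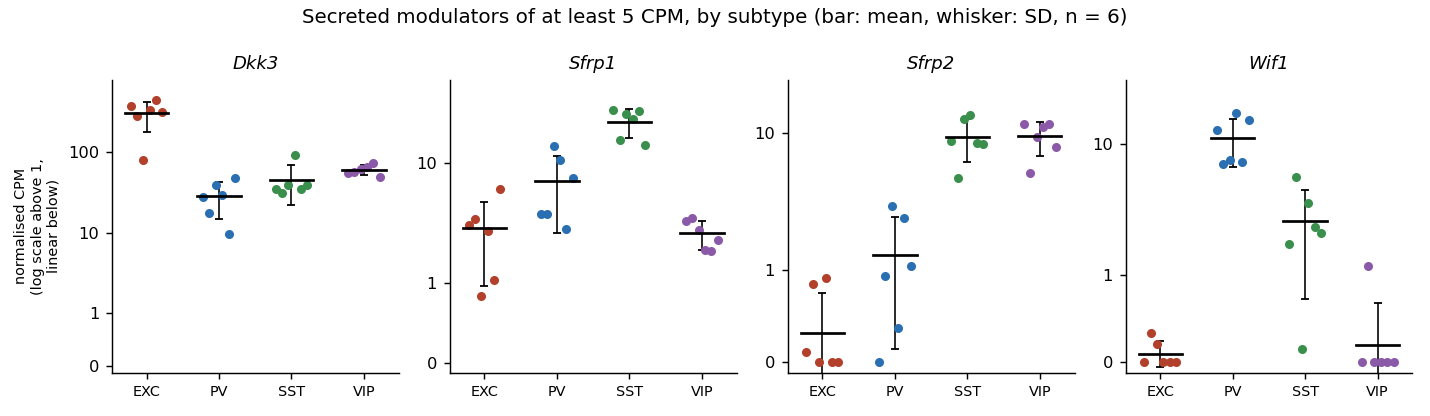
Levels of the 4 secreted modulators of at least 5 CPM, 1 point per library, with the mean as a bar and the SD as a whisker (n = 6 per subtype, axis logarithmic above 1 CPM and linear below, whiskers below 0 not drawn). Dkk3 is highest in EXC apart from replicate 3 at 78.9 CPM, Sfrp1 in SST, Sfrp2 in SST and VIP, and Wif1 in PV.

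Sfrp4 averaged 2.64 ± 1.44 CPM in VIP, 1.40 ± 1.36 in PV, 0.716 ± 0.363 in SST and 0.262 ± 0.481 in EXC. Its groups overlapped, and VIP against EXC was 3.08 ± 0.81 (adjusted p = 0.00353). Sfrp5 and the Dickkopf genes Dkk1, Dkk2 and Dkk4 averaged at most 0.834 CPM in any subtype.

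**Figure D5:**
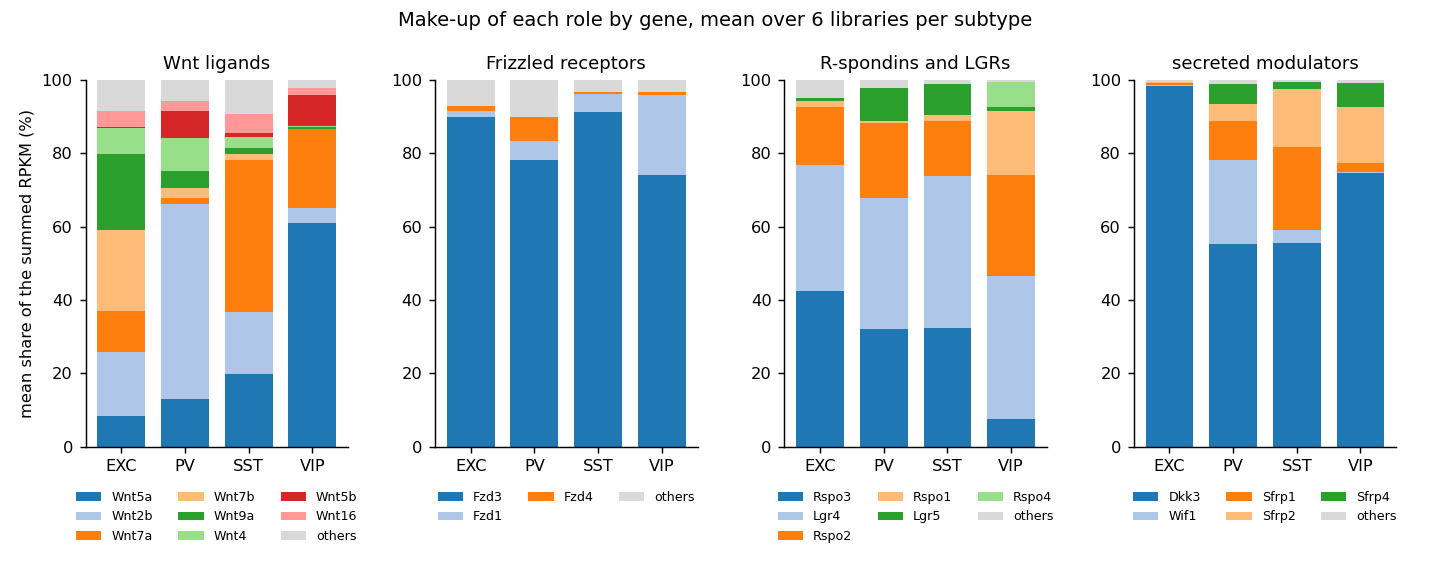
Mean share of each gene in the summed RPKM of its role, in percent, per subtype (mean over 6 libraries), with genes under 5% in every subtype joined as others. Fzd3 fills 74.0% to 91.3% of the Frizzled bars and Dkk3 98.4% of the EXC modulator bar, whereas the ligand bars differ in make-up between all 4 subtypes.

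EXC was set against the mean of the 3 GABA sorts. Of the 30 genes tested, 10 were higher in EXC (Dkk3, Fzd3, Fzd7, Lgr6, Lrp6, Ror1, Rspo3, Wnt4, Wnt7b and Wnt9a) and 8 lower (Fzd1, Lgr5, Sfrp1, Sfrp2, Sfrp4, Wif1, Wnt5a and Wnt5b), against 24.5% higher and 18.1% lower of all genes tested (42.5% in all). By pairs, Fzd1, Sfrp4, Wnt4 and Wnt5a were not called between PV and EXC. The fitted Wnt5a change there was -0.66 ± 0.46 (adjusted p = 0.245), lower in PV. Between SST and EXC, Fzd3, Sfrp4 and Wnt5b were not called, and between VIP and EXC Fzd3, Lgr5, Sfrp1 and Wif1 were not. The median size of the log2 fold was 1.65 for the 30 genes and 0.52 for all genes. A gene can pass the filter through its highest subtype alone, so nothing is drawn from this median or those of the later contrasts. The dentate granule neuron sum was 1426 to 1947 CPM in EXC, 1171 to 1261 in VIP, where Prox1 gave most of it, and at most 498 in PV and SST, and its part in the EXC values was not tested. Leaving out EXC replicates 2, 3 and 6 together, a choice made after seeing the data, gave 10 higher and 7 lower, and the call of Sfrp4 ended (adjusted p = 0.15). With the sequencing pool as a covariate 7 genes were higher and 6 lower. The calls of Lgr6, Rspo3, Sfrp4 and Wnt5a ended (adjusted p 0.212, 0.95, 0.0687 and 0.0677), and Wnt4 turned in direction (-0.83, adjusted p = 0.426). This fit links EXC to SST and VIP through EXC replicate 3 alone, the library with the low excitatory sum. That library held the lowest EXC values of Lgr6, Rspo3 and Wnt4 and the highest of Wnt5a.

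PV was set against the mean of SST and VIP. It was higher for 5 genes (Fzd4, Lgr5, Lgr6, Rspo3 and Wif1) and lower for 10 (Dkk3, Fzd1, Fzd3, Lrp6, Rspo1, Sfrp2, Wnt2, Wnt5a, Wnt7a and Wnt16), against 19.3% higher and 21.6% lower of all genes (40.9% in all). All of these genes were called in the same direction between PV and VIP. Between PV and SST, Lgr5, Lgr6, Rspo3, Dkk3, Lrp6 and Rspo1 were not called. The median size was 1.18 against 0.56 over all genes. PV shares no pool with SST or VIP, and with the pool as a covariate, which links them through EXC replicate 3 alone, 5 genes were called, all of them lower. Of the 5 genes higher in PV, 4 turned in direction, namely Fzd4 (-0.19), Lgr5 (-4.20), Lgr6 (-1.06) and Rspo3 (-1.32), with adjusted p from 0.162 to 0.915, and Wif1 lost its call (3.58, adjusted p = 0.991). Of the genes lower in PV, Fzd3 lost its call as well (-0.81, adjusted p = 0.104). So did Lrp6, Sfrp2, Wnt16 and Wnt5a (adjusted p 0.164, 0.102, 0.244 and 0.0675).

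SST was set against the mean of PV and VIP. It was higher for 6 genes (Fzd3, Ror1, Sfrp1, Sfrp2, Wnt2 and Wnt7a) and lower for 4 (Fzd4, Rspo2, Wnt5a and Wnt5b), against 11.2% and 7.15% of all genes (18.3% in all). Wnt7a was nevertheless lower in SST than in VIP, and for Sfrp2 and Wnt2 the pair of SST and VIP was not called (adjusted p 0.928 and 0.806). Fzd4 was not called in that pair either (adjusted p = 0.435), and Wnt5b was not called between PV and SST. Wnt5a was lower in SST than that mean (-1.04 ± 0.34, adjusted p = 0.0322) but every SST library lay above every PV library, and the call was lost in 6 of the 24 fits without 1 library (adjusted p from 0.0504 to 0.0789). The median size was 1.00 against 0.33 over all genes. With the pool as a covariate 7 genes were higher and 1 lower. The calls of Fzd4, Ror1, Rspo2, Sfrp2 and Wnt5b ended (adjusted p 0.821, 0.332, 0.0626, 0.147 and 0.951). Of the calls above, Fzd3, Sfrp1, Wnt2 and Wnt7a stayed higher and Wnt5a stayed lower. The 7 thus include genes not called without that covariate.

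VIP was set against the mean of PV and SST. It was higher for 14 genes (Dkk3, Fzd1, Fzd3, Lgr4, Lrp6, Rspo1, Rspo2, Rspo4, Sfrp2, Wnt2, Wnt5a, Wnt5b, Wnt7a and Wnt16) and lower for 4 (Lgr5, Rspo3, Sfrp1 and Wif1), against 25.8% and 20.5% of all genes (46.3% in all). Between SST and VIP, Dkk3, Lrp6, Sfrp2, Wnt2 and Wnt16 were not called (adjusted p 0.414, 0.222, 0.928, 0.806 and 0.355). Fzd3 was lower in VIP than in SST (SST against VIP 0.42 ± 0.16, adjusted p = 0.0434). Rspo2 was not called between PV and VIP. The median size was 1.10 against 0.58 over all genes. The astrocyte marker sum was 1127 to 1651 CPM in VIP, 238 to 769 in PV and 239 to 345 in SST, so VIP did not overlap them. Most of the sum was Slc1a2, at 1212 CPM on average in VIP, while Aqp4 was at 3.33, Gja1 at 4.76 and Gfap at 0.409 there, and its part in the VIP values was not tested. Adjusted for pool, 8 genes were higher and 2 lower. Lgr5 turned in direction (0.0896, adjusted p = 0.84). Among those lost were Rspo2 (0.92, adjusted p = 0.079) and Sfrp1 (-1.23, adjusted p = 0.222), and Rspo4, at 0 reads in both other groups, had an adjusted p of 1.0.

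By pairs, 19 of the 30 genes were called between PV and EXC, 6 higher and 13 lower in PV, against 45.9% of all genes (20.3% and 25.6%). Between SST and EXC 18 were called, 7 higher and 11 lower in SST, against 38.4% (17.1% and 21.3%). Between VIP and EXC 18 were called, 9 in each direction, against 39.1% (18.4% and 20.7%). Among the GABA sorts, 12 were called between PV and SST, 3 higher and 9 lower in PV, against 26.3% (11.4% and 14.9%). PV against VIP gave 19, of which 6 higher and 13 lower in PV, against 48.6% (21.9% and 26.7%), and SST against VIP gave 14, of which 6 higher and 8 lower in SST, against 31.3% (14.6% and 16.7%). These comparisons share libraries. Within POOL6188, 14 of the 19 genes called between PV and EXC could be tested. All 14 kept their direction and 12 were called. In that pool 13 of the 23 genes described here that were tested were called, against 5685 of all 12447 genes tested. Within POOL7098, 13 of the 14 called between SST and VIP could be tested. All 13 kept their direction and 12 were called. There 13 of the 32 genes tested were called, against 6868 of all 16449 genes. Within POOL7099, with EXC replicate 3 alone assumed to vary like the 4 VIP libraries, 16 of 18 could be tested and all 16 kept their direction. The sizes moved both ways. VIP against EXC was -0.03 for Dkk3, -0.89 for Fzd7 and -0.75 for Wnt9a there, next to -2.42, -3.14 and -3.44 over all libraries. It was 7.43 for Fzd1 and 8.88 for Rspo1, next to 3.66 and 3.33. Without PV replicate 3 the count between PV and EXC fell from 19 to 12.

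Between female and male libraries none of the 30 genes was called by edgeR, where 0.0403% of all genes were (0.0134% higher and 0.0269% lower in females), and DESeq2 called none either. At an unadjusted p under 0.05 there was 1 gene, Fzd1, of the 30 (392 of 14890 genes). The subtype-by-sex term was called for no gene (0.0%), and 2 of the 30, Fzd7 and Wnt5a, had an unadjusted p under 0.05 (319 of all genes).

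Other genes of the pathway were counted over 7 lists of 108 genes, of which 90 were tested. Of these, 74 differed among the subtypes (68.5% of all genes did). In EXC 38 were higher and 17 lower (24.5% and 18.1% of all genes), and in VIP 17 were higher and 30 lower than in the mean of PV and SST (25.8% and 20.5% of all genes). With the pool as a covariate the counts were 28 and 17 in EXC (median 0.11) and 9 and 10 in VIP (median -0.10). Without that covariate the median log2 fold of the 90 was 0.46 in EXC and -0.25 in VIP, against 0.06 and 0.04 over all genes. Among the genes of ligand secretion, Wls, the carrier that brings Wnt proteins to the surface, averaged 18.3 ± 2.06 CPM in PV, 12.8 ± 4.05 in VIP, 12.7 ± 1.69 in SST and 3.89 ± 2.72 in EXC, where it was lower by 1.92 on the log2 scale (log2 fold change -1.92 ± 0.27, adjusted p = 1.36e-06). Gpc4, a heparan sulphate proteoglycan, averaged 150 ± 26.4 CPM in EXC and 2.58 to 11.9 elsewhere (4.44 ± 0.14, adjusted p = 5.54e-19), whereas its relative Gpc6 averaged 49.5 ± 9.67 in VIP and 7.67 to 19.2 elsewhere.

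Among other receptors and membrane regulators, Lypd6, which is known to promote LRP6 signalling, averaged 275 ± 35.5 CPM in SST, 82.5 ± 6.31 in PV, 8.04 ± 5.96 in EXC and 7.56 ± 1.95 in VIP (SST against the mean of PV and VIP 3.42 ± 0.22, adjusted p = 5.58e-12). Tspan12, a partner of Fzd4 in norrin signalling, averaged 27.8 ± 11.6 in PV and 6.04 to 12.3 elsewhere. Of the other secreted modulators, Frzb averaged 30.4 ± 8.54 CPM in EXC and at most 4.97 elsewhere (4.01 ± 0.26, adjusted p = 7.09e-13), Sostdc1 24.9 ± 4.99 in VIP and at most 6.58 elsewhere, and Cthrc1 13.8 ± 3.48 in PV and at most 5.83 elsewhere. In the list of 10 receptors and regulators tested, 6 were higher and 2 lower in EXC (24.5% and 18.1% of all genes). Without EXC replicates 2, 3 and 6 these counts were 3 and 2.

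Inside the cell, 20 of 29 cytoplasmic genes differed among the subtypes, where 68.5% of all genes did. Dact1, which regulates Dishevelled, averaged 43.8 ± 6.55 CPM in SST and 4.79 to 13.9 elsewhere, Cxxc4, a Dishevelled inhibitor, 221 ± 50.6 in SST and 45.5 ± 26.7 in EXC, and the casein kinase gene Csnk1g1 125 ± 10.1 in EXC and 43.2 to 71.5 elsewhere. Of the 14 nuclear genes tested, 13 differed, against the same 68.5%: the co-repressor Tle2 averaged 14.0 ± 7.48 in VIP and at most 2.40 elsewhere, Tle1 108 ± 44.1 in EXC, and Tle4 128 ± 37.5 in EXC and 116 ± 26.6 in SST. Of 21 genes of the planar polarity and calcium branch, 17 differed, again against 68.5%. Among them Ppp3ca, a calcineurin subunit, and Camk2a, itself a marker of the excitatory sort, were higher in EXC by 2.45 ± 0.11 and 2.63 ± 0.20 (adjusted p = 5.03e-16 and 2.65e-11), and Celsr1 averaged 7.41 ± 4.28 CPM in PV and at most 2.08 elsewhere.

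Of 11 feedback and target genes tested, 8 were higher in EXC than in the mean of the GABA sorts and 0 lower, with a median of 1.06, against 24.5% higher and 18.1% lower of all genes. Adding the pool as a covariate left 6 higher and 0 lower. Axin2, the most used reporter of β-catenin signalling, averaged 24.1 ± 5.02 CPM in EXC and 10.5 to 17.7 in the other sorts, and was higher in EXC by 0.73 ± 0.15 (adjusted p = 0.000227). Znrf3, the ligase opposed by R-spondins, averaged 66.8 in EXC and 17.5 to 19.9 elsewhere (1.83 ± 0.14, adjusted p = 2.67e-11). Apcdd1 (3.67 ± 0.39) and Ccnd1 (1.82 ± 0.21) were also higher in EXC. Several genes of this list are expressed by glia and vessels too. The oligodendrocyte sum was 85.0 to 2987 CPM in EXC and at most 741 elsewhere, and the endothelial sum 17.0 to 194 in EXC and at most 32.2 elsewhere. The astrocyte sum was 504 to 4325 CPM in EXC, 1127 to 1651 in VIP and at most 769 in PV and SST. The mural and fibroblast sum was 43.4 to 171 CPM in EXC and at most 63.2 elsewhere. Their part in these values was not tested. Without EXC replicates 2, 3 and 6 the count was 6 higher and 1 lower of 12 tested.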

How the data were processed

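RNA of 24 libraries was measured by bulk RNA-seq. The authors aligned reads with GSNAP to GRCm38, per the submitters' processing notes. The deposited counts are uniquely aligned reads per gene model, per the file headers, and the deposited RPKM values are size-factor-adjusted by the authors, per the file headers. For the counter, annotation release and strand setting: not given in the sources used here. Over 7268 genes the ratio of count to RPKM varied between libraries by one factor per library.

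Symbols and positions came from RefSeq (GRCm38.p6) by NCBI Gene number: 31049 of 36528 genes matched, and 77 more through GENCODE, and all 49 genes described matched. Counts were tested with edgeR 4.0.16 in R 4.3.3: filterByExpr by subtype, TMM, terms for subtype and sex, quasi-likelihood F tests, Benjamini-Hochberg adjustment over 14890 genes, called under 0.05. Within a gene, levels are TMM-normalised CPM; between genes, RPKM. SE was taken as |log2 fold change|/√F. Ratios of summed normalised reads carry exact binomial 95% intervals, and a group with 0 reads is set to a floor of 3 counts; both cover counting error only. A level of 1 CPM is few reads in PV, the shallowest sort. Replicates are numbered in order of deposition. The method was tested on simulated data.

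Genes were described in full at a mean of at least 5 CPM in some subtype and in brief from 1 CPM. Rspo4, which peaked below 5 CPM on average, was an exception and was described at length. From each pathway list up to 3 genes were named, those called jointly with the largest range of mean log2 CPM between subtypes and at least 5 CPM in one; Axin2 and Znrf3 were added after their values were seen. The genes and lists were chosen with earlier results of these data known. Alternatives were DESeq2 1.42.0, other scaling factors, other filters, robust fitting, no sex term, the pool as a covariate, fits within a pool and fits without 1 or more libraries.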

Additional observations from a re-analysis of the deposited data

Results flagged for a closer look

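Groups of 6 libraries were checked for the 22 genes of at least 5 CPM in some subtype, in each subtype where the gene averaged at least 1 CPM. In 5 of these 68 groups, 1 library stood apart by Dixon's criterion at 95%. Chance alone marks about 1 in 20 groups. Dkk3 was at 92.5 CPM in SST replicate 4, with 30.8 to 39.3 in the other SST libraries. Lgr6 was at 25.1 CPM in EXC replicate 6, with 1.69 to 10.4 in the other EXC libraries. Rspo3 was at 8.81 CPM in VIP replicate 2, with 1.60 to 4.27 in the others. Wnt5b was at 3.36 CPM in PV replicate 3, with 0.469 to 1.49 in the others. Fzd4 was at 5.03 CPM in VIP replicate 4, with 2.93 to 3.52 in the others.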

How the results depend on the processing

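Of the 61 gene and contrast pairs called against a mean, all 61 kept direction and call under DESeq2, DESeq2 size factors, upper-quartile factors, robust fitting and the fit without EXC replicate 3 and SST replicate 5, as did all 48 that passed a filter of 5 CPM in 6 libraries. Without a sex term 1 call was lost and without a filter 3. With the pool as a covariate 33 kept the call, 22 lost it and 6 changed sign. The counts called were then 5 for PV and 10 for VIP against the means, and 8 for SST and 10 for VIP against EXC. They were 7 for PV against SST and 6 for PV against VIP. This fit joins both PV and EXC to SST and VIP through EXC replicate 3 alone. The changed signs were Wnt4 in EXC (-0.83), Fzd4 (-0.19), Lgr5 (-4.20), Lgr6 (-1.06) and Rspo3 (-1.32) in PV, and Lgr5 in VIP (0.0896), each with an adjusted p of at least 0.162; the cause was not tested. Within POOL7099, where EXC replicate 3 is the sole EXC library, fewer genes were called between VIP and EXC than over all libraries. Leaving out 1 library gave 12 to 19 genes between PV and EXC, and 47 of 1464 single results lost their call. No paired analysis was possible because the labels carry no replicate numbers. PV depth limits the low genes: 3 reads over the group are 0.213 CPM.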
